A study of Mus musculus with 24 samples.

Results

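The injury-phase response of livers without hepatocyte EGFR was read from 6 of the 24 libraries of an acetaminophen time course in mice. These were 3 EGFR-KO livers taken 12 h after 500 mg/kg acetaminophen (APAP), called KO 12 h here, and 3 EGFR-KO livers labelled 0 h, called KO 0 h. The members were chosen by their genotype and time labels alone. EGFR-KO means that the epidermal growth factor receptor gene was deleted in hepatocytes only, so the other cells of the liver keep it. The labels do not name the Cre line or promoter, the strain, the age, the sex or how the 0 h mice were handled, so effects of the drug cannot be told apart from those of the hour, handling or feeding. The 3 WT 12 h livers came from wild-type mice given the same dose, and the 3 WT 0 h livers from wild-type mice labelled 0 h. These WT livers entered where the responses of the genotypes were compared. The KO 1 h and KO 3 h groups, also of 3 livers each, entered for the order in time. Livers taken at 6 and 24 h are not analysed here. Each library was polyadenylated RNA of an individual mouse liver, sequenced on an AVITI instrument.

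APAP is activated by cytochrome P450 enzymes, mainly CYP2E1 in the pericentral zone of the liver lobule, to a reactive quinone imine that is conjugated to glutathione. In overdose glutathione is exhausted, mitochondrial proteins are modified, the stress kinase JNK is activated and pericentral hepatocytes die, and the surviving tissue then enters repair. EGFR is a receptor tyrosine kinase of hepatocytes that signals through the RAS and ERK cascade when it binds EGF, amphiregulin, HB-EGF, betacellulin or TGF-alpha, and it is known for its part in liver regeneration.

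The KO 12 h libraries held 3537237 to 4214237 gene counts and the KO 0 h libraries 5955695 to 7506938. The transcripts of the mitochondrial ribosomal RNAs took 44.8 to 50.4% of the gene counts in KO 12 h libraries and 41.8 to 43.2% in KO 0 h libraries. The 12 h group was therefore the shallower of the pair. Pearson's r of log2(CPM + 1) between replicates was 0.962 to 0.969 at 12 h and 0.98 to 0.983 at 0 h, where CPM is the counts-per-million level after TMM scaling. Chi-square per degree of freedom between replicate pairs overlapped between the groups, at 5.34 to 7.9 at 12 h and 3.86 to 7.49 at 0 h. Between the groups r was 0.916 to 0.927. Egfr itself had 66.0, 117 and 43.0 CPM in KO 12 h livers, against 59.5, 78.0 and 109.6 CPM in KO 0 h livers. The change in Egfr was -0.12 ± 0.45 (SE) on the log2 scale (edgeR adjusted p = 0.874). The groups overlapped, and both lay below the WT 12 h livers (mean 223 CPM) and the WT 0 h livers (393 CPM). The remaining Egfr counts cannot be assigned to cells without the deletion or to transcripts of the deleted allele.

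In KO livers 3802 of the 13204 genes tested differed between 12 h and 0 h at an adjusted p below 0.05 in edgeR's quasi-likelihood test with Benjamini-Hochberg adjustment, which is 28.8%. Of these 1989 were higher at 12 h, 15.1% of the genes tested, and 1813 were lower, 13.7%. A log2 fold change above 1 was reached by 1146 of the genes that rose (8.68%), and one below -1 by 717 of those that fell (5.43%). Beyond 4 on the log2 scale there were 87 higher genes (0.659%) and 8 lower ones (0.0606%), so the largest changes were mostly rises. The median log2 fold change of all tested genes was -0.00293 and the middle of the distribution ran between -0.388 and 0.414 at its quartiles. Scaling by library size alone, without TMM, moved that median to -0.259 and left 26.3% of its 4801 calls on the higher side, against 52.3% of the 3802 here. Under that scaling the median of a list changed sign for the aminoacyl-tRNA synthetase, NRF2, antioxidant, EGF receptor, hypoxia, complement, growth hormone and autophagy lists described below, and for the hepatocyte, sinusoidal endothelium and erythroid markers. All log2 fold changes below are 12 h over 0 h, and "called" means an adjusted p below 0.05 over all 13204 genes. The livers are bulk tissue, in which fewer cells of a type and less RNA per cell cannot be told apart.

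**Figure D1:**
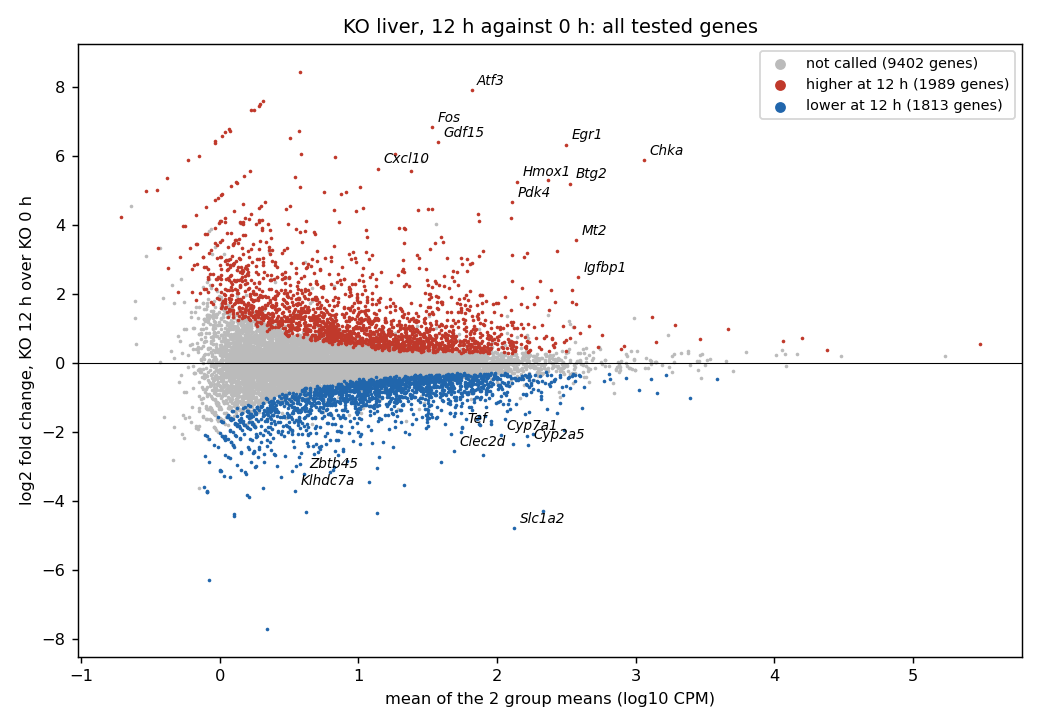
Each point is a gene tested in KO livers, with its mean level (log10 of the mean of the group means, in CPM) on the horizontal axis and its log2 fold change, KO 12 h over KO 0 h, on the vertical axis. The 1989 genes called higher and 1813 called lower are coloured, and the points farthest from 0 lie mostly above it.

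The AP-1 transcription factors, the FOS, JUN, ATF and small MAF proteins that bind DNA as dimers and are transcribed within minutes of stress or growth factor signals, held some of the steepest rises. Of 11 tested members of a list of 14, 10 were called higher and 0 lower, with a median log2 fold change of 3.53: Fosb, Atf3, Fos, Jun, Maff, Junb, Fosl2, Mafk, Jund and Jdp2. The count stayed at 10 when any of the 6 libraries was left out. The sequences just upstream of the start sites of the 5 of these genes that follow show which short motifs lie there. They are the 150 bases before the annotated start, on the gene's strand, from RefSeq on GRCm38.p6, a build other than that of the counts, and 13 of the 14 listed genes had an entry. The capitals mark matches to TGACG (the core of the cAMP response element, bound by ATF and CREB proteins), to the related TGACNTCA, in which the TGACG motif is contained when N is G, to the AP-1 site TGANTCA, or to the TATA box TATAAA, searched on both strands.
Fos, chr12:85473740-85473889, plus strand: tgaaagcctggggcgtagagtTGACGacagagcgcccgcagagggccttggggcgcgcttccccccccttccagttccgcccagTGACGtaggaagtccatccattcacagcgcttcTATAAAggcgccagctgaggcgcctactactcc
Fosb, chr7:19310046-19310195, minus strand: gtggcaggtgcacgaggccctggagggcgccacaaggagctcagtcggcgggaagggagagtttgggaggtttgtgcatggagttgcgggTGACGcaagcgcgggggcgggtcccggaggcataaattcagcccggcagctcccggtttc
Jun, chr4:95052223-95052372, minus strand: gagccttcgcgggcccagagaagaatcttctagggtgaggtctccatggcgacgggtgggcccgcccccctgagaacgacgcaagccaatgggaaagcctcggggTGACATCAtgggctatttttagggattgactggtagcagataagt
Junb, chr8:84978749-84978898, minus strand: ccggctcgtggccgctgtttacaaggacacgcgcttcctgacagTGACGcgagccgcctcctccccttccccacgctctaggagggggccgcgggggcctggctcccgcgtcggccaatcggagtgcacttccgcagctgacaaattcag
Atf3, chr1:191183334-191183483, minus strand: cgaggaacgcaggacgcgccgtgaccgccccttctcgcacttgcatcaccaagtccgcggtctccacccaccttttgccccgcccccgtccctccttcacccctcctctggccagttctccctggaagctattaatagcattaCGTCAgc
TGACG stood 66 to 62 bases before the start of Fos and again at 129 to 125 bases, 60 to 56 bases before Fosb and 106 to 102 bases before Junb, and on the opposite strand 7 to 3 bases before Atf3. Jun held TGACNTCA at 45 to 38 bases, and Fos a TATA box at 33 to 28 bases. A gene was counted when any of its windows held the motif. TGACG was found for 9 of the 13 listed genes, against 23.3% of tested genes and 25.1% of genes called higher. TGACNTCA was found for 2 of 13, against 5.74% of tested genes and 8.23% of genes called higher. TATAAA was found for 1 of 13, against 5.19% and 6.25%, and TGANTCA for 0 of 13, against 3.73% and 3.69%. These shares cover the 9621 tested genes, 1409 of them called higher, that had a window. Over all 32851 RefSeq promoter windows taken singly, TGACG lay in 13.3%, TGACNTCA in 5.7%, TATAAA in 7.57% and TGANTCA in 4.24%. A match is a run of letters and not a bound site.

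Atf3, a stress-induced repressor and activator, had 156, 104 and 132 CPM in KO 12 h livers, against 0.158, 0.746 and 0.621 CPM in KO 0 h livers. For Atf3 the log2 fold change was 7.91 ± 0.43 (SE; edgeR adjusted p = 5.78e-11). Fos had 68.6, 52.8 and 82.1 CPM in KO 12 h livers, against 0.475, 0.298 and 0.869 CPM in KO 0 h livers. The change in Fos was 6.84 ± 0.46 (SE) on the log2 scale (edgeR adjusted p = 1.6e-09). Both genes were barely detected in the 0 h libraries and well expressed in all 12 h libraries. Fosb had 12.6, 3.44 and 6.63 CPM in KO 12 h livers, against 0, 0 and 0 CPM in KO 0 h livers, so its fold is only a bound, at least 51.6-fold higher against a floor of 3 counts over the group (edgeR adjusted p = 5.09e-07). Jun, whose protein is the substrate that gives JNK its name, had 504, 406 and 445 CPM in KO 12 h livers, against 11.4, 14.5 and 8.07 CPM in KO 0 h livers. For Jun the log2 fold change was 5.33 ± 0.26 (SE; edgeR adjusted p = 1.29e-12). Junb had 71.2, 68.5 and 86.6 CPM in KO 12 h livers, against 8.07, 6.42 and 5.21 CPM in KO 0 h livers, and Maff had 60.1, 34.1 and 59.7 CPM in KO 12 h livers, against 2.53, 2.24 and 2.23 CPM in KO 0 h livers (log2 fold changes 3.53 and 4.44). Jund, the AP-1 member that is usually present at rest, had 53.4, 41.3 and 63.2 CPM in KO 12 h livers, against 8.39, 12.7 and 11.2 CPM in KO 0 h livers (log2 fold change 2.27, adjusted p = 2.47e-11). In none of these genes did the groups overlap, as was the case for 20.5% of all tested genes with the 12 h libraries above and 20.6% with them below.

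**Figure D2:**
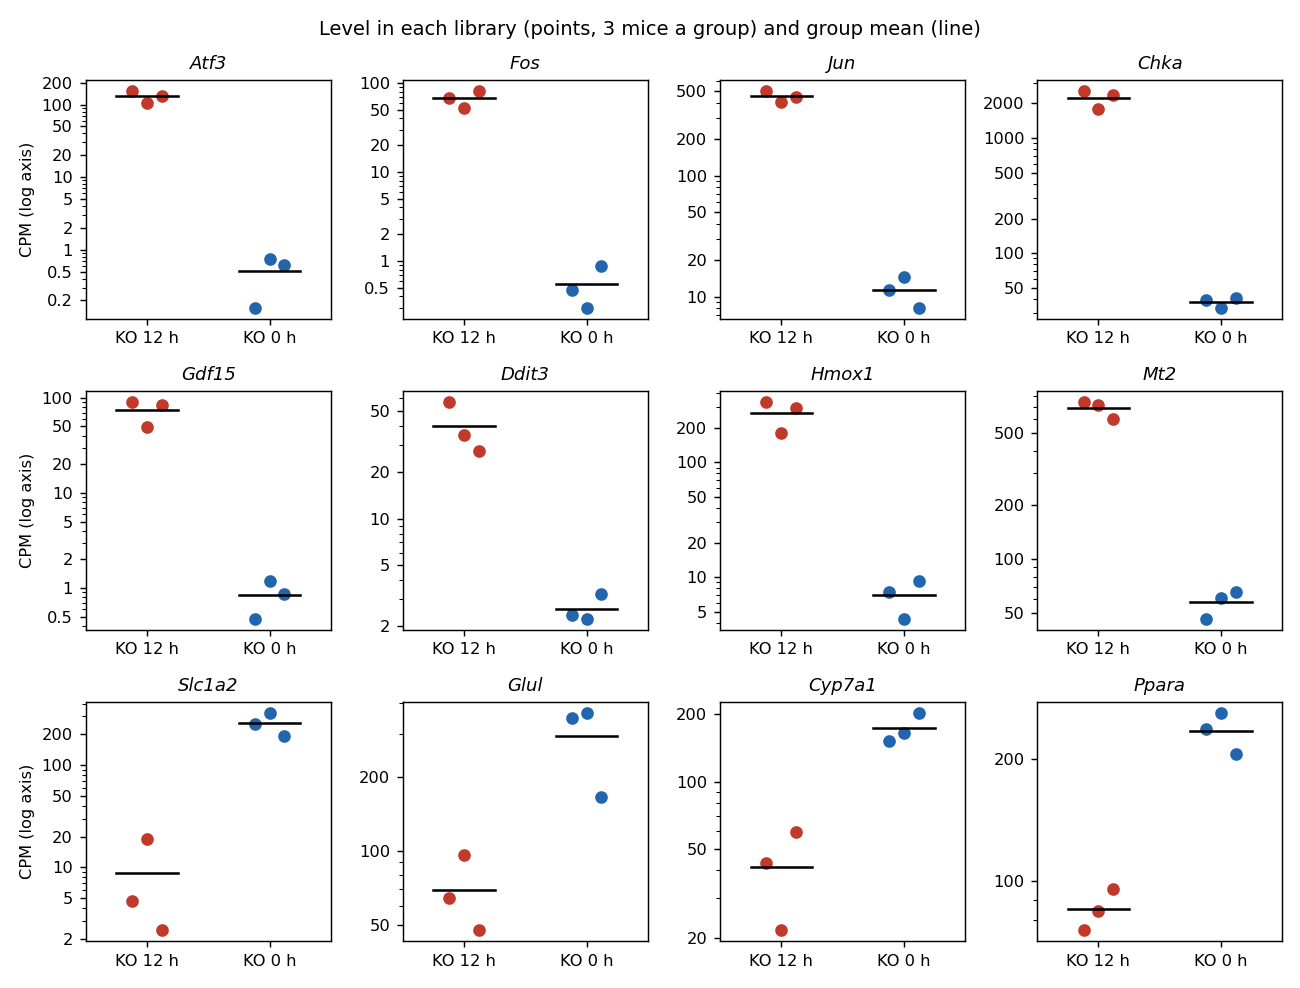
Level of 12 genes in each library (CPM, log axis), KO 12 h at the left and KO 0 h at the right of each panel, with points for libraries and lines for group means. Atf3, Fos, Jun, Chka, Gdf15, Ddit3, Hmox1 and Mt2 are higher in every KO 12 h library than in any KO 0 h library, and Slc1a2, Glul, Cyp7a1 and Ppara are lower.

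The other immediate early genes rose with them: 11 of 12 tested members were called higher and 0 lower, with a median of 2.89. Egr1, a zinc finger factor downstream of ERK and serum response factor, had 629, 683 and 553 CPM in KO 12 h livers, against 3.64, 14.8 and 4.72 CPM in KO 0 h livers. The change in Egr1 was 6.34 ± 0.43 (SE) on the log2 scale (edgeR adjusted p = 6.24e-09). Ier2 had 147, 104 and 164 CPM in KO 12 h livers, against 6.97, 8.21 and 5.59 CPM in KO 0 h livers (log2 fold change 4.33, adjusted p = 1.27e-10). Klf6 had 102, 59.7 and 57.3 CPM in KO 12 h livers, against 6.17, 5.22 and 5.84 CPM in KO 0 h livers (log2 fold change 3.66, adjusted p = 2.45e-11). Myc had 44.0, 29.2 and 36.3 CPM in KO 12 h livers, against 3.32, 7.91 and 5.21 CPM in KO 0 h livers (log2 fold change 2.72, adjusted p = 1.07e-08). The remaining called members were Ier3, Nr4a1, Csrnp1, Klf4, Ier5, Srf and Klf2. Among 8 factors that shorten messenger RNA tails, 5 were called higher and the 2 TOB genes, Tob1 and Tob2, lower. Btg2 had 596, 694 and 686 CPM in KO 12 h livers, against 12.3, 18.2 and 22.6 CPM in KO 0 h livers. For Btg2 the log2 fold change was 5.21 ± 0.30 (SE; edgeR adjusted p = 1.01e-10). Zfp36, whose protein binds AU-rich elements of cytokine messages, had 243, 237 and 209.5 CPM in KO 12 h livers, against 29.6, 22.8 and 25.5 CPM in KO 0 h livers. The change in Zfp36 was 3.15 ± 0.14 (SE) on the log2 scale (edgeR adjusted p = 3.04e-16). Tob1 (log2 fold change -0.69, adjusted p = 0.0246) and Tob2 (log2 fold change -0.77, adjusted p = 0.00141) moved by far less, and the count of lower members was 1 or 2 with a library left out (KO 0 h replicate 2, KO 12 h replicates 1 and 2).

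Feedback inhibitors and targets of ERK were higher at 12 h: 11 of 12 tested members were called higher and 0 lower (median 1.88). They were Egr1, Dusp5, Ier3, Dusp6, Phlda1, Dusp4, Spry1, Epha2, Spred2, Spry4 and Spred1. Dusp4, a nuclear phosphatase of ERK, had 16.7, 14.5 and 11.2 CPM in KO 12 h livers, against 2.22, 4.03 and 3.23 CPM in KO 0 h livers (log2 fold change 2.16, adjusted p = 2.13e-07). Dusp5 had 22.6, 6.63 and 3.84 CPM in KO 12 h livers, against 0.475, 0.298 and 0.248 CPM in KO 0 h livers (log2 fold change 4.97, adjusted p = 1.26e-06), with the highest level in replicate 1. Spred2, an inhibitor of RAS and RAF, had 67.4, 66.6 and 59.0 CPM in KO 12 h livers, against 32.8, 27.8 and 30.2 CPM in KO 0 h livers (log2 fold change 1.09, adjusted p = 1.51e-06). Of 18 tested genes of the JNK and p38 pathway 8 were called higher and 2 lower, with a median of 0.70. Among the higher ones were Gadd45a and Gadd45b, stress sensors of the GADD45 family, while Gadd45g of the same family was not called. Gadd45a had 59.5, 23.3 and 26.5 CPM in KO 12 h livers, against 0.317, 0.597 and 0.621 CPM in KO 0 h livers. For Gadd45a the log2 fold change was 6.07 ± 0.52 (SE; edgeR adjusted p = 3.2e-08). Gadd45b had 17.9, 21.9 and 28.3 CPM in KO 12 h livers, against 1.90, 3.13 and 2.61 CPM in KO 0 h livers (log2 fold change 3.13, adjusted p = 1.44e-10). Dusp8, a phosphatase of JNK and p38, had 12.3, 17.7 and 14.0 CPM in KO 12 h livers, against 0.475, 0 and 0.869 CPM in KO 0 h livers (log2 fold change 4.90, adjusted p = 6.77e-11). Dusp10, Dusp1, Dusp16, Mapkapk2 and Mapk8 were also called higher. Map2k6, a kinase of p38 (log2 fold change -2.23, adjusted p = 4.48e-06), and Sh3bp5, a docking protein of JNK at mitochondria (log2 fold change -0.53, adjusted p = 0.00615), were called lower, and the lower count was 1 without KO 12 h replicate 2.

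Genes of the integrated stress response, in which phosphorylation of eIF2 slows translation and favours ATF4, were in large part higher at 12 h. Of 18 tested members 11 were called higher and 1 lower, with a median of 1.39. Asns, Trib3, Ddit4, Fgf21, Vldlr and Cebpg were not called. Phosphorylation of eIF2 and translation were not measured. Ddit3, which encodes the transcription factor CHOP, had 57.2, 34.9 and 27.6 CPM in KO 12 h livers, against 2.38, 2.24 and 3.23 CPM in KO 0 h livers. The change in Ddit3 was 3.91 ± 0.28 (SE) on the log2 scale (edgeR adjusted p = 2.52e-11). Gdf15, a circulating stress hormone, had 90.9, 49.1 and 83.5 CPM in KO 12 h livers, against 0.475, 1.19 and 0.869 CPM in KO 0 h livers. For Gdf15 the log2 fold change was 6.40 ± 0.44 (SE; edgeR adjusted p = 2.31e-09). Ppp1r15a, the stress-induced subunit that dephosphorylates eIF2, had 40.5, 24.6 and 41.9 CPM in KO 12 h livers, against 5.70, 6.12 and 4.84 CPM in KO 0 h livers (log2 fold change 2.67, adjusted p = 5.13e-12). Atf4 had 73.6, 79.8 and 78.9 CPM in KO 12 h livers, against 26.8, 30.1 and 26.2 CPM in KO 0 h livers (log2 fold change 1.48, adjusted p = 5.25e-10). Serine and one-carbon enzymes of the ATF4 programme rose as well, Psat1 by 3.87, Phgdh by 2.41 and Mthfd2 by 2.04 on the log2 scale, while Shmt2, the mitochondrial serine hydroxymethyltransferase, fell (log2 fold change -0.60, adjusted p = 0.00232). Cytosolic aminoacyl-tRNA synthetases gave 4 calls of 20, all higher (Wars1, Tars1, Gars1 and Cars1), against 15.1% of all tested genes called higher, with a median of 0.22 that was -0.0345 under scaling by library size alone. Tars1 had 108, 104 and 97.1 CPM in KO 12 h livers, against 78.0, 62.7 and 67.3 CPM in KO 0 h livers (log2 fold change 0.58, adjusted p = 9.96e-05). Gars1 and Cars1 lost their calls without KO 0 h replicate 2, which left 2, and Wars1 had a log2 fold change of 1.32 that was 0.37 (edgeR adjusted p = 0.295) with the counts of the annotated strand.

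Chaperones did not move as a block. Of 20 genes of the endoplasmic reticulum and its unfolded protein response 5 were called higher and 3 lower, with a median of -0.15. Ern1, the sensor kinase IRE1, had 118, 71.0 and 80.3 CPM in KO 12 h livers, against 29.4, 25.4 and 28.4 CPM in KO 0 h livers. The change in Ern1 was 1.69 ± 0.18 (SE) on the log2 scale (edgeR adjusted p = 9.32e-08). Hspa5, the chaperone BiP, had 471, 475 and 518 CPM in KO 12 h livers, against 233, 279.9 and 192 CPM in KO 0 h livers (log2 fold change 1.05, adjusted p = 3.43e-06). Edem1, which delivers misfolded proteins for degradation, had 48.1, 46.2 and 53.1 CPM in KO 12 h livers, against 82.8, 71.6 and 73.1 CPM in KO 0 h livers (log2 fold change -0.63, adjusted p = 0.000105) and fell together with Sel1l and Canx; the lower count was 2 to 7 with a library left out, 7 without KO 0 h replicate 3. Of 20 cytosolic heat shock chaperones 3 rose and 6 fell. Dnajb1, a co-chaperone of HSP70, had 102, 81.8 and 51.0 CPM in KO 12 h livers, against 10.4, 10.3 and 7.70 CPM in KO 0 h livers. For Dnajb1 the log2 fold change was 3.06 ± 0.35 (SE; edgeR adjusted p = 4.08e-06). Hspb8 had 116, 118 and 87.0 CPM in KO 12 h livers, against 35.5, 43.1 and 39.9 CPM in KO 0 h livers (log2 fold change 1.44, adjusted p = 2.31e-09), whereas the HSP90 partners Fkbp4, Stip1, Ahsa1 and Chordc1 and the HSP70 partners Hsph1 and Dnaja1 were the ones that fell. Fkbp4 had 24.6, 21.6 and 24.8 CPM in KO 12 h livers, against 45.3, 36.1 and 36.9 CPM in KO 0 h livers (log2 fold change -0.74, adjusted p = 0.00313). The list had 2 falls in the leave-one-out fit with the fewest, and KO 0 h replicate 2 and KO 12 h replicates 2 and 3 each moved the count by over 1.5 times.

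Targets of p53 and cell death genes were raised in part. Of 15 tested p53 targets 5 rose and Ccng1 fell (log2 fold change -1.36, adjusted p = 9.45e-05). Cdkn1a, the cell cycle inhibitor p21, had 103, 102 and 113 CPM in KO 12 h livers, against 10.3, 11.3 and 27.6 CPM in KO 0 h livers. The change in Cdkn1a was 2.66 ± 0.37 (SE) on the log2 scale (edgeR adjusted p = 3.8e-05). Mdm2, the ubiquitin ligase of p53, had 250.3, 138 and 254 CPM in KO 12 h livers, against 33.4, 44.0 and 45.9 CPM in KO 0 h livers. For Mdm2 the log2 fold change was 2.37 ± 0.17 (SE; edgeR adjusted p = 4.47e-11). Trp53inp1 had 384, 269 and 274 CPM in KO 12 h livers, against 62.2, 98.9 and 84.6 CPM in KO 0 h livers (log2 fold change 1.91, adjusted p = 4.51e-09). Of 17 BCL2 family, death receptor and necroptosis genes 5 rose and 0 fell. They comprised the pro-apoptotic BIM gene Bcl2l11, at 23.2, 21.4 and 27.2 CPM in KO 12 h livers, against 6.81, 7.46 and 8.57 CPM in KO 0 h livers (log2 fold change 1.63, adjusted p = 8.73e-08), and the pro-survival Mcl1, at 134, 80.8 and 96.0 CPM in KO 12 h livers, against 44.8, 36.1 and 38.5 CPM in KO 0 h livers (log2 fold change 1.38, adjusted p = 1.09e-06). Ripk1, a kinase of necroptosis, had 63.0, 46.4 and 59.0 CPM in KO 12 h livers, against 31.5, 30.7 and 33.8 CPM in KO 0 h livers (log2 fold change 0.80, adjusted p = 2e-05). Bcl2l1, which encodes BCL-XL, lost its call without KO 12 h replicate 1.

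NRF2, the transcription factor released by electrophiles such as the APAP metabolite, drives glutathione and thioredoxin genes, and 7 of its 20 tested targets were called higher and 1 lower. Hmox1, the heme oxygenase, had 336, 179.6 and 296 CPM in KO 12 h livers, against 7.44, 4.33 and 9.19 CPM in KO 0 h livers. The change in Hmox1 was 5.26 ± 0.53 (SE) on the log2 scale (edgeR adjusted p = 1.33e-06). Gclc, the rate-limiting subunit of glutathione synthesis, had 198, 148 and 219 CPM in KO 12 h livers, against 72.2, 59.5 and 62.7 CPM in KO 0 h livers. For Gclc the log2 fold change was 1.54 ± 0.19 (SE; edgeR adjusted p = 1.07e-06). Txnrd1, thioredoxin reductase, had 170.3, 156 and 159 CPM in KO 12 h livers, against 73.8, 77.9 and 72.6 CPM in KO 0 h livers (log2 fold change 1.11, adjusted p = 2.01e-09). Osgin1 had 132, 102 and 189 CPM in KO 12 h livers, against 11.6, 7.16 and 5.59 CPM in KO 0 h livers (log2 fold change 4.13, adjusted p = 1.98e-09). Srxn1, Pgd and Ftl1 also rose, and Abcc3, an exporter of drug glucuronides, fell (log2 fold change -0.56, adjusted p = 0.00364); 2 fell without KO 0 h replicate 1 or KO 12 h replicate 3. The median over the 20 genes was 0.19, and -0.0768 under scaling by library size alone, so the list as a whole had no stable direction. Nqo1, a textbook NRF2 target chosen here after its values were seen, was not called, with 0.879, 2.70 and 2.79 CPM in KO 12 h livers, against 1.43, 2.54 and 2.73 CPM in KO 0 h livers (log2 fold change -0.09, adjusted p = 0.877). The metallothioneins, small metal-binding proteins, were the steepest of the antioxidant list, in which 3 of 16 members rose and 2 fell. These calls were 31.2% of the antioxidant list, against 28.8% of all tested genes. Mt2 had 746, 713 and 601 CPM in KO 12 h livers, against 46.5, 61.0 and 65.8 CPM in KO 0 h livers and Mt1 had 491, 514 and 458 CPM in KO 12 h livers, against 39.9, 59.4 and 55.4 CPM in KO 0 h livers (log2 fold changes 3.57 and 3.24). The calls of the other 3, Gpx3, Cat and Prdx6, were less stable, with 0 to 2 falls when a library was left out (KO 0 h replicates 1 and 2 and KO 12 h replicates 1 and 2 moved the count).

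Genes of drug handling mostly fell or did not move. Of 20 glutathione S-transferases 5 were called lower and 1 higher (median -0.35). Gsta3 had 61.5, 46.9 and 72.6 CPM in KO 12 h livers, against 164, 127 and 114 CPM in KO 0 h livers. The change in Gsta3 was -1.17 ± 0.21 (SE) on the log2 scale (edgeR adjusted p = 0.000246). Gstt2 had 6.16, 6.63 and 8.38 CPM in KO 12 h livers, against 14.2, 13.1 and 14.7 CPM in KO 0 h livers (log2 fold change -1.0, adjusted p = 0.00449). Gsta1 was higher, at 4.98, 0.737 and 2.10 CPM in KO 12 h livers, against 0, 0.149 and 0.372 CPM in KO 0 h livers, but its call was lost without KO 12 h replicate 1 (log2 fold change 2.68, adjusted p = 0.103), and the list then had 0 rises, against 2 without KO 12 h replicate 2. Of 31 cytochrome P450 and other phase I genes 10 were called lower and 2 higher, Cyp2b10 and Cyp2c70, and these counts were 7 to 10 and 0 to 2 with a library left out. The 2 calls of higher genes were moved by KO 0 h replicates 1, 2 and 3 and by KO 12 h replicates 2 and 3. Cyp2a5, which hydroxylates coumarin, had 40.2, 42.8 and 80.7 CPM in KO 12 h livers, against 198, 321 and 317 CPM in KO 0 h livers. For Cyp2a5 the log2 fold change was -2.37 ± 0.39 (SE; edgeR adjusted p = 0.000224). Cyp2c38 had 6.45, 6.14 and 3.84 CPM in KO 12 h livers, against 28, 25.8 and 36.3 CPM in KO 0 h livers (log2 fold change -2.43, adjusted p = 0.000245). Fmo5, a flavin monooxygenase, had 189, 189 and 241 CPM in KO 12 h livers, against 400, 367 and 405 CPM in KO 0 h livers (log2 fold change -0.92, adjusted p = 6.57e-06). Cyp2e1, the main enzyme that activates APAP and likewise chosen after its values were seen, had 1769, 2016 and 1126 CPM in KO 12 h livers, against 3628, 4077 and 2111 CPM in KO 0 h livers. The change in Cyp2e1 was -1.0 ± 0.20 (SE) on the log2 scale (edgeR adjusted p = 0.000474). Of 18 genes of APAP glucuronidation and sulfation 4 were called lower and 0 higher: Ugp2, which makes UDP-glucose, had 92.3, 76.9 and 77.9 CPM in KO 12 h livers, against 135, 147 and 117 CPM in KO 0 h livers (log2 fold change -0.69, adjusted p = 0.000793). Sult1b1 had 7.33, 8.60 and 8.03 CPM in KO 12 h livers, against 15.4, 15.2 and 12.9 CPM in KO 0 h livers (log2 fold change -0.85, adjusted p = 0.00319), and Papss2 and Ugt1a1 lost their calls without KO 12 h replicate 1, which left 2. Cyp2a, Cyp2c, Gst, Ugt and metallothionein genes have close paralogs, between which the authors' counting of uniquely placed reads may divide the signal unevenly.

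Transcription factors and nuclear receptors that define the hepatocyte fell together. Of 21 tested members 13 were called lower and 0 higher, with a median of -0.71, and 11 to 13 were lower when each library in turn was left out. Ppara, the fatty acid sensor, had 75.6, 84.3 and 95.7 CPM in KO 12 h livers, against 238, 261 and 206 CPM in KO 0 h livers. For Ppara the log2 fold change was -1.47 ± 0.17 (SE; edgeR adjusted p = 1.07e-07). Nr5a2, a regulator of bile acid and cholesterol genes, had 19.6, 23.6 and 17.5 CPM in KO 12 h livers, against 51.0, 47.9 and 42.1 CPM in KO 0 h livers. The change in Nr5a2 was -1.20 ± 0.13 (SE) on the log2 scale (edgeR adjusted p = 1.16e-08). Onecut2 had 99.7, 119.9 and 117 CPM in KO 12 h livers, against 227, 220.4 and 183 CPM in KO 0 h livers (log2 fold change -0.90, adjusted p = 8.91e-06). Prox1 had 73.9, 93.1 and 69.5 CPM in KO 12 h livers, against 154, 153 and 128 CPM in KO 0 h livers (log2 fold change -0.88, adjusted p = 1.36e-05). Nr1h4, the bile acid receptor FXR, had 44.0, 42.2 and 39.5 CPM in KO 12 h livers, against 76.0, 80.1 and 68.9 CPM in KO 0 h livers (log2 fold change -0.84, adjusted p = 5.28e-05). Nr0b2 (SHP), Nr1i3 (CAR), Foxa3, Foxa2, Nr1h3 and Rxra were lower by 0.47 to 1.71 on the log2 scale. Hnf4a, the master regulator of the hepatocyte and also chosen after its values were seen, was among the least changed of the 13, with 267, 238 and 240.3 CPM in KO 12 h livers, against 327, 338 and 310.3 CPM in KO 0 h livers (log2 fold change -0.39, adjusted p = 0.00831). The 8 hepatocyte marker messages summed to 38000 to 42700 CPM in KO 12 h livers and 28600 to 37900 CPM in KO 0 h livers. Most of that sum was Alb, whose call was lost in 5 of the 6 leave-one-out fits.

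Of 23 tested genes of the pericentral zone, where WNT signals come from the central vein, 14 were called lower and 0 higher, with a median of -0.97. Among the WNT targets of the list, Axin2, Lgr5, Nkd1, Rnf43 and Znrf3 were not called, whereas Notum, Tbx3 and Glul were called lower. Slc1a2, a glutamate transporter, had 4.69, 19.2 and 2.44 CPM in KO 12 h livers, against 253, 325 and 195 CPM in KO 0 h livers (log2 fold change -4.78 ± 0.48 (SE), edgeR adjusted p = 1.08e-06), the steepest fall of the genes named here. Glul, glutamine synthetase, the classical marker of the cells next to the central vein, had 64.5, 96.5 and 47.8 CPM in KO 12 h livers, against 346, 364 and 166 CPM in KO 0 h livers. For Glul the log2 fold change was -2.06 ± 0.25 (SE; edgeR adjusted p = 4.67e-06). Oat, ornithine aminotransferase, had 125, 148 and 104 CPM in KO 12 h livers, against 369, 659 and 413 CPM in KO 0 h livers. The change in Oat was -1.93 ± 0.21 (SE) on the log2 scale (edgeR adjusted p = 3.86e-07). In each of these 3 genes every 12 h library lay below every 0 h library. Gulo fell too (log2 fold change -0.97, adjusted p = 1.82e-05), and Slc22a3, Lect2, Slc13a3, Ahr, Tbx3 and Notum were among the falls with the 3 P450 genes Cyp2e1, Cyp2a5 and Cyp2c29. Of 19 periportal genes 4 were called lower and 2 higher, with a median of -0.0487. These calls were 31.6% of the periportal list, against 28.8% of all tested genes. Pck1, the gluconeogenic enzyme PEPCK, had 916, 949 and 1146 CPM in KO 12 h livers, against 1806, 1861 and 1846 CPM in KO 0 h livers (log2 fold change -0.87, adjusted p = 0.000216). Hal, histidine ammonia lyase, had 88.2, 117 and 132 CPM in KO 12 h livers, against 185, 159 and 294 CPM in KO 0 h livers (log2 fold change -0.92, adjusted p = 0.00191). The 2 periportal rises, Cdh1 and Hsd17b13, were each lost in several leave-one-out fits (0 to 3 rises over the 6, each library but KO 0 h replicate 3 moving the count) and under scaling by library size alone. The falls of the pericentral list against those of the periportal list were not tested against each other.

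Of 13 genes of bile acid synthesis and its control 7 were called lower and 0 higher (median -0.44; 5 to 8 with a library left out). They were the enzyme genes Cyp7a1, Akr1d1, Hsd3b7 and Amacr and the regulators Nr0b2, Nr1h4 and Fgfr4, while the enzyme genes Cyp8b1, Cyp27a1, Cyp7b1, Baat and Slc27a5 were not called. Cyp7a1, the rate-limiting enzyme of the classical pathway, had 43.4, 21.6 and 59.7 CPM in KO 12 h livers, against 152, 165 and 203 CPM in KO 0 h livers, or 41.6 ± 19.1 and 174 ± 26.7 CPM (SD, n = 3 each; log2 fold change -2.08 ± 0.45 (SE), edgeR adjusted p = 0.00222). Akr1d1, the bile acid 5-beta-reductase, had 48.1, 29.7 and 49.6 CPM in KO 12 h livers, against 146, 97.3 and 123 CPM in KO 0 h livers. For Akr1d1 the log2 fold change was -1.53 ± 0.21 (SE; edgeR adjusted p = 6.9e-06). Hsd3b7 had 52.2, 53.1 and 56.6 CPM in KO 12 h livers, against 85.8, 78.5 and 75.9 CPM in KO 0 h livers and Amacr had 39.6, 43.5 and 37.7 CPM in KO 12 h livers, against 54.8, 53.3 and 56.1 CPM in KO 0 h livers (log2 fold changes -0.57 and -0.44). Fgfr4, the receptor through which intestinal FGF restrains Cyp7a1, fell as well (log2 fold change -0.79, adjusted p = 0.0129), as did the FXR gene Nr1h4 and its target Nr0b2 (log2 fold change -1.71, adjusted p = 0.00486). Of 18 drug and bile transporters 7 were called lower and 1, Slc22a7, higher. Slco1b2, an organic anion uptake carrier, had 261, 183 and 269 CPM in KO 12 h livers, against 703, 646 and 412 CPM in KO 0 h livers. The change in Slco1b2 was -1.31 ± 0.23 (SE) on the log2 scale (edgeR adjusted p = 0.00022). Abcg8 and Abcg5, which pair as a sterol exporter, had log2 fold changes of -1.21 and -1.02, and Slc10a1, the bile acid uptake carrier, fell by less (log2 fold change -0.36, adjusted p = 0.0396). The rise of Slc22a7 was lost without KO 0 h replicate 3 or KO 12 h replicate 3.

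Of 26 fatty acid oxidation genes and PPARA targets 4 rose and 5 fell, where 15.1% of all tested genes rose and 13.7% fell, and the rises among the lipogenic and cholesterol genes lay below that share. Pdk4, which shuts off pyruvate oxidation, had 222, 242 and 274 CPM in KO 12 h livers, against 8.87, 7.46 and 12.4 CPM in KO 0 h livers. For Pdk4 the log2 fold change was 4.67 ± 0.56 (SE; edgeR adjusted p = 8.24e-06). Plin2, the lipid droplet coat protein, had 518, 617 and 484 CPM in KO 12 h livers, against 160.5, 168 and 146 CPM in KO 0 h livers. The change in Plin2 was 1.77 ± 0.17 (SE) on the log2 scale (edgeR adjusted p = 7.64e-09). Angptl4 had 113, 116 and 100.2 CPM in KO 12 h livers, against 57.3, 60.3 and 67.4 CPM in KO 0 h livers (log2 fold change 0.83, adjusted p = 2.24e-05). Bdh1, the ketone body dehydrogenase, had 26.7, 19.4 and 28.6 CPM in KO 12 h livers, against 74.7, 66.1 and 61.0 CPM in KO 0 h livers (log2 fold change -1.45, adjusted p = 0.00299). Cpt2 (log2 fold change -0.43, adjusted p = 0.00489) and Acadm (log2 fold change -0.33, adjusted p = 0.039) were also among the falls, and 3 to 6 genes fell with a library left out, the count being moved by KO 0 h replicate 2. Of 18 lipogenic genes 6 fell and 2 rose. Elovl6 had 22.9, 27.5 and 23.8 CPM in KO 12 h livers, against 49.2, 58.6 and 33.9 CPM in KO 0 h livers (log2 fold change -0.93, adjusted p = 0.00276). The transcription factor Srebf1 had 26.7, 18.7 and 21.3 CPM in KO 12 h livers, against 14.1, 7.31 and 5.96 CPM in KO 0 h livers (log2 fold change 1.30, adjusted p = 0.00774). Acly lost its call without KO 0 h replicates 1 or 2 or KO 12 h replicate 2, the falls numbered 4 to 6, and the rises 1 or 2, with 1 when KO 0 h replicate 2 or 3 or KO 12 h replicate 1 or 2 was left out. Of 21 cholesterol genes 3 fell and 2 rose, with a median of -0.62, and 2 to 8 fell with a library left out, the count being moved by KO 0 h replicates 2 and 3 and KO 12 h replicates 1 and 3. Insig2, which retains SREBP in the endoplasmic reticulum, had 389.5, 496 and 330.4 CPM in KO 12 h livers, against 186, 172 and 216 CPM in KO 0 h livers (log2 fold change 1.08, adjusted p = 0.000218). Sc5d, a late enzyme of cholesterol synthesis, had 49.2, 34.9 and 59.4 CPM in KO 12 h livers, against 118, 85.8 and 77.0 CPM in KO 0 h livers (log2 fold change -0.98, adjusted p = 0.000133).

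Of 15 genes of gluconeogenesis, glycogen and insulin response 8 were called lower and 1 higher (median -0.45; 6 to 8 lower with a library left out). Igfbp1, a stress- and fasting-induced binding protein of IGF1, was the one that rose, with 767, 594 and 603 CPM in KO 12 h livers, against 57.5, 110 and 179 CPM in KO 0 h livers. For Igfbp1 the log2 fold change was 2.50 ± 0.36 (SE; edgeR adjusted p = 5.47e-05). The glycogen-targeting subunits Ppp1r3b and Ppp1r3c had the steepest falls. Ppp1r3b had 40.5, 27 and 34.9 CPM in KO 12 h livers, against 161, 108 and 77.2 CPM in KO 0 h livers (log2 fold change -1.76, adjusted p = 0.000179), and Ppp1r3c had a log2 fold change of -2.10. Irs1, the insulin receptor substrate, had 6.74, 7.12 and 10.8 CPM in KO 12 h livers, against 26.9, 22.4 and 19.5 CPM in KO 0 h livers. The change in Irs1 was -1.5 ± 0.24 (SE) on the log2 scale (edgeR adjusted p = 2.72e-05). Insr, Pck1, G6pc1, Fbp1 and Pcx fell by 0.32 to 0.89 on the log2 scale. Of 31 genes of the urea cycle and amino acid breakdown 10 fell and 0 rose, with a median of only -0.16. Haao and Kynu, of the kynurenine pathway, had the smallest p. Haao had 34.3, 29.2 and 23.4 CPM in KO 12 h livers, against 63.5, 61.3 and 54.3 CPM in KO 0 h livers (log2 fold change -1.03, adjusted p = 4.01e-06). Kynu had 62.1, 55.0 and 62.2 CPM in KO 12 h livers, against 87.1, 111 and 119.7 CPM in KO 0 h livers (log2 fold change -0.83, adjusted p = 4.25e-06). Nags, which makes the activator of the urea cycle, had 9.38, 7.62 and 8.38 CPM in KO 12 h livers, against 16.8, 14.5 and 14.2 CPM in KO 0 h livers (log2 fold change -0.84, adjusted p = 0.000449). Cps1, the enzyme it serves, had 4163, 5442 and 4050 CPM in KO 12 h livers, against 3621, 4284 and 5135 CPM in KO 0 h livers (log2 fold change 0.067, adjusted p = 0.795). Of 12 growth hormone axis genes Ghr, the receptor, fell, at 125, 108 and 149 CPM in KO 12 h livers, against 264, 234 and 180.1 CPM in KO 0 h livers (log2 fold change -0.83, adjusted p = 0.00263), and Igfbp1 and Socs2 rose, the call of Socs2 being lost without KO 12 h replicate 2 and the falls numbering 1 or 2, moved by KO 12 h replicate 1. Calls made up 25% of the growth hormone list, against 28.8% of all tested genes.

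The circadian clock was in another state at 12 h than at 0 h, with 10 of 20 genes called higher and 5 lower. Bmal1, the positive arm, had 24.0, 20.6 and 20.9 CPM in KO 12 h livers, against 5.22, 4.03 and 8.69 CPM in KO 0 h livers. For Bmal1 the log2 fold change was 1.84 ± 0.26 (SE; edgeR adjusted p = 6.67e-06). The repressors Per2 and Nfil3 were higher as well. Per2 had 29.9, 38.8 and 25.5 CPM in KO 12 h livers, against 18.2, 16.9 and 10.4 CPM in KO 0 h livers (log2 fold change 1.07, adjusted p = 2.83e-05). Nfil3 had 33.4, 30.9 and 46.1 CPM in KO 12 h livers, against 9.34, 6.27 and 6.58 CPM in KO 0 h livers. The change in Nfil3 was 2.31 ± 0.21 (SE) on the log2 scale (edgeR adjusted p = 7.27e-10). Bhlhe40, Cry1, Bhlhe41, Per1, Rora, Cry2 and Nr1d1 completed the rises. The output factors of the PAR bZIP family went the other way. Tef had 22.9, 24.8 and 23.4 CPM in KO 12 h livers, against 95.8, 87.4 and 78.6 CPM in KO 0 h livers. For Tef the log2 fold change was -1.88 ± 0.17 (SE; edgeR adjusted p = 4.98e-10). Hlf had 13.2, 25.8 and 19.9 CPM in KO 12 h livers, against 47.3, 38.5 and 35.8 CPM in KO 0 h livers (log2 fold change -1.03, adjusted p = 2.48e-05). Dbp had 0.879, 0 and 0.698 CPM in KO 12 h livers, against 6.81, 4.03 and 4.22 CPM in KO 0 h livers (log2 fold change -3.30, adjusted p = 0.0137). Per3 and Usp2 fell with them. The call of Dbp was lost without KO 12 h replicate 2 (adjusted p = 0.0766), while the list had 8 to 10 rises and 4 or 5 falls in the 6 leave-one-out fits. The clock times at which livers were taken are not in the labels, so the drug and the hour of the day cannot be told apart in these genes.

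Of 11 IL-6 and STAT3 components 6 rose and Il6ra, the IL-6 receptor, fell (log2 fold change -0.59, adjusted p = 0.0121), a call lost without KO 0 h replicate 2 or KO 12 h replicate 2 or 3. Socs3, the feedback inhibitor of STAT3, had 34.3, 37.1 and 71.6 CPM in KO 12 h livers, against 4.59, 7.16 and 4.35 CPM in KO 0 h livers. The change in Socs3 was 3.14 ± 0.24 (SE) on the log2 scale (edgeR adjusted p = 6.94e-11). Osmr, the oncostatin M receptor, had 19.1, 18.2 and 22.0 CPM in KO 12 h livers, against 4.43, 4.33 and 7.20 CPM in KO 0 h livers (log2 fold change 1.86, adjusted p = 6.47e-07). Of 14 tested NF-kB targets and chemokines 5 rose and 0 fell. Cxcl10 and Cxcl1 were the only listed chemokines tested, since Cxcl2, Cxcl5, Ccl2, Ccl3, Ccl4 and Ccl7 did not pass the filter, nor did Tnf and Il1b. Cxcl10, a chemoattractant of T cells and monocytes, had 34.3, 24.1 and 22.7 CPM in KO 12 h livers, against 0.791, 0.448 and 0.372 CPM in KO 0 h livers. For Cxcl10 the log2 fold change was 5.63 ± 0.37 (SE; edgeR adjusted p = 9.44e-13). Nfkbiz had 56.6, 72.7 and 67.0 CPM in KO 12 h livers, against 5.54, 5.97 and 5.84 CPM in KO 0 h livers. The change in Nfkbiz was 3.5 ± 0.23 (SE) on the log2 scale (edgeR adjusted p = 3.64e-12). Cxcl1, a neutrophil chemokine, had 13.2, 3.19 and 2.10 CPM in KO 12 h livers, against 0.95, 1.19 and 0.869 CPM in KO 0 h livers, and its call was lost without KO 12 h replicate 1 (log2 fold change 1.42, adjusted p = 0.0831). By contrast, of 24 positive acute phase genes Cd14 alone rose, at 7.62, 3.44 and 4.89 CPM in KO 12 h livers, against 0.633, 0.746 and 0.248 CPM in KO 0 h livers (log2 fold change 3.27, adjusted p = 1.22e-05), and Saa4 alone fell, at 36, 37.3 and 51.7 CPM in KO 12 h livers, against 175, 139.7 and 105 CPM in KO 0 h livers (log2 fold change -1.75, adjusted p = 0.00159). Lbp, the lipopolysaccharide-binding protein, was not called, with 91.5, 107 and 103 CPM in KO 12 h livers, against 81.4, 57.3 and 86.2 CPM in KO 0 h livers (adjusted p = 0.057). Saa2, a major acute phase protein of mice, had 1.47, 2.21 and 165 CPM in KO 12 h livers, against 0.633, 2.09 and 0.124 CPM in KO 0 h livers (adjusted p = 0.0811), so 1 of the 12 h libraries stood far above the other 5. With a library left out, 1 or 2 members rose and 1 or 2 fell, moved by KO 0 h replicate 3 and KO 12 h replicate 3. Of 21 interferon-stimulated genes 4 rose (Ifit2, Ifit3, Oasl1 and Rsad2) and 2 fell, with Irf9 among them (log2 fold change -0.77, edgeR adjusted p = 0.0173). These calls were 28.6% of the list, against 28.8% of all tested genes. Ifit3 had 11.1, 3.19 and 9.43 CPM in KO 12 h livers, against 3.01, 2.69 and 3.23 CPM in KO 0 h livers (log2 fold change 1.36, adjusted p = 0.00132). The rises numbered 2 without KO 12 h replicate 1 and 10 without KO 12 h replicate 2, and the falls 1 to 3, with 1 when KO 0 h replicate 1 or KO 12 h replicate 2 or 3 was left out.

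Secreted plasma proteins were a mixed group. Of 20 coagulation and fibrinolysis genes 7 fell and 2 rose. Thbd, thrombomodulin, had 13.2, 8.11 and 11.2 CPM in KO 12 h livers, against 2.06, 3.58 and 2.73 CPM in KO 0 h livers (log2 fold change 1.93, adjusted p = 3.91e-06). Klkb1, plasma prekallikrein, had 65.7, 36.9 and 69.1 CPM in KO 12 h livers, against 201, 162 and 155 CPM in KO 0 h livers (log2 fold change -1.60, adjusted p = 0.000854). F11 had 31.7, 29.2 and 27.2 CPM in KO 12 h livers, against 59.4, 54.2 and 49.3 CPM in KO 0 h livers (log2 fold change -0.88, adjusted p = 3.93e-05), and F5, F7, F13b, Serpind1 and Serpinf2 fell by 0.31 to 0.66 on the log2 scale. Of 18 complement genes 3 fell and C9 rose, so 22.2% were called, against 28.8% of all tested genes. Mbl1, a mannose-binding lectin, had 37.8, 39.8 and 48.5 CPM in KO 12 h livers, against 80.3, 80.4 and 58.6 CPM in KO 0 h livers (log2 fold change -0.80, adjusted p = 0.00022), and the call of C9 was lost without KO 0 h replicate 3 or KO 12 h replicate 3, and 2 members rose without KO 0 h replicate 1. Of 18 plasma carriers and apolipoproteins Alb and Apoa4 rose and Serpina6 and Apoh fell, but these counts were 0 to 2 in either direction, and each of the 6 libraries moved them. Calls made up 22.2% of the carrier and apolipoprotein list, against 28.8% of all tested genes. Alb had 25900, 28450 and 27070 CPM in KO 12 h livers, against 20760, 17000 and 24750 CPM in KO 0 h livers (log2 fold change 0.38, adjusted p = 0.0405).

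Markers of the other cell types of the liver were measured beside these changes. Neutrophil markers were near the limit of detection, with 0 of 10 genes passing the filter and a summed level of 4.18 to 4.98 CPM in KO 12 h livers and 0.621 to 0.746 CPM in KO 0 h livers. S100a8 had 0.879, 2.46 and 0.698 CPM in KO 12 h livers, against 0, 0.149 and 0 CPM in KO 0 h livers. Of the monocyte and infiltrating macrophage markers 2 of 10 were tested and Plac8 was called higher. Plac8 had 9, 5 and 4 counts in KO 12 h libraries, against 3, 4 and 2 in KO 0 h libraries. Its call was lost without KO 0 h replicate 1 or 3 or KO 12 h replicate 1. The summed level of the 10 markers was 10.1 to 18.2 CPM in KO 12 h livers and 7.91 to 10.8 CPM in KO 0 h livers, and the defining genes Ly6c2 and Ccr2 were at 0 in all 6 libraries and at 0, 0 and 0.349 CPM in KO 12 h livers, against 0.792, 0.149 and 0.497 CPM in KO 0 h livers. Clec4f, a Kupffer cell marker, had 17.9, 15.2 and 25.8 CPM in KO 12 h livers, against 21.1, 15.7 and 18.6 CPM in KO 0 h livers. Kupffer cell markers summed to 93.8 to 132 CPM in KO 12 h livers and 80.3 to 103 CPM in KO 0 h livers. Of the 12 markers C1qb and C1qc were called higher, or 16.7%, against 15.1% of all tested genes called higher. Only 1 was higher without KO 0 h replicate 2 or 3 or KO 12 h replicate 2 or 3. For sinusoidal endothelium Cdh5 and Pecam1 were called higher and Gpr182 lower of 12 (399 to 516 CPM in KO 12 h livers and 370 to 404 CPM in KO 0 h livers), and for stellate cells Dcn was called higher of 12 (205 to 255 and 158 to 210 CPM in the same order of groups). The call of Gpr182 was lost without KO 0 h replicate 1 or 3 or KO 12 h replicate 1 or 2. Bile duct markers summed to 38.6 to 132 CPM in KO 12 h livers and 23.6 to 28.5 CPM in KO 0 h livers with Sox9 among them, while Krt19 stayed at or below 0.586 CPM in all 6 libraries. T and NK cell markers stayed at or below 1.23 CPM in sum, with Trac, Trbc2 and Gzmb at 0 throughout, B and plasma cell markers at or below 3.14 CPM with Ighm at 0, and mesothelial markers at or below 2.34 CPM. Platelet markers summed to 3.22 to 6.29 CPM in KO 12 h livers and 1.04 to 1.74 CPM in KO 0 h livers, with Itga2b called higher. That call was lost without KO 0 h replicate 1 or 2 or KO 12 h replicate 2 or 3. Erythroid markers summed to 86.2 to 125 CPM in KO 12 h livers and 64.9 to 95 CPM in KO 0 h livers, with Alas2 called lower. The fall of Alas2 was not called without KO 0 h replicate 2 or 3 or KO 12 h replicate 1 or 2. The part of these cell types in the gene groups above was not tested.

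Several ligands of the EGF receptor family were called higher at 12 h in KO livers, all at low levels. Of 17 tested ligands, receptors and adaptors 6 were called higher and 3 lower. In WT livers 4 members of this list were called higher and 3 lower. Areg, amphiregulin, had 6.16, 2.46 and 3.14 CPM in KO 12 h livers, against 0, 0 and 0 CPM in KO 0 h livers, at least 27.2-fold higher against a floor of 3 counts over the group (edgeR adjusted p = 2.95e-06). Hbegf had 5.86, 2.70 and 3.84 CPM in KO 12 h livers, against 0.317, 0.298 and 0.497 CPM in KO 0 h livers. The change in Hbegf was 3.36 ± 0.53 (SE) on the log2 scale (edgeR adjusted p = 1.16e-05). Btc, betacellulin, had 4.10, 5.16 and 2.10 CPM in KO 12 h livers, against 1.27, 1.19 and 1.24 CPM in KO 0 h livers. For Btc the log2 fold change was 1.65 ± 0.38 (SE; edgeR adjusted p = 0.00147). Like Areg, Hbegf and Btc, Egf and Nrg1 were called higher at low levels. Egf had 1.17, 2.46 and 1.4 CPM in KO 12 h livers, against 0.475, 0.149 and 0.372 CPM in KO 0 h livers. Nrg1 had 7.04, 2.46 and 2.10 CPM in KO 12 h livers, against 0.95, 0.895 and 0.745 CPM in KO 0 h livers. The call of Egf was lost without KO 12 h replicate 2 and that of Nrg1 without KO 12 h replicate 1. Tgfa was not called, with 10.6, 16.2 and 13.3 CPM in KO 12 h livers, against 21.9, 18.9 and 15.9 CPM in KO 0 h livers (adjusted p = 0.142). Errfi1, the inducible inhibitor of EGFR, rose by 0.41 on the log2 scale. Erbb3, the receptor family member without an active kinase, fell, at 25.2, 30.5 and 27.2 CPM in KO 12 h livers, against 60.6, 60.3 and 63.5 CPM in KO 0 h livers. The change in Erbb3 was -1.15 ± 0.13 (SE) on the log2 scale (edgeR adjusted p = 4.72e-08). The adaptor Gab1 had 8.21, 9.09 and 8.73 CPM in KO 12 h livers, against 16.6, 13.1 and 14.9 CPM in KO 0 h livers (log2 fold change -0.77, adjusted p = 0.00123). The median of the list was 0.14, and -0.12 under scaling by library size alone.

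Repair and cytoskeletal genes rose in part. Of 16 YAP targets and wound repair genes 7 rose and Ccn2 fell (log2 fold change -1.76, adjusted p = 0.00269). Tnfrsf12a, the receptor of TWEAK, had 23.4, 18.2 and 20.6 CPM in KO 12 h livers, against 1.11, 0.597 and 0.993 CPM in KO 0 h livers. For Tnfrsf12a the log2 fold change was 4.49 ± 0.32 (SE; edgeR adjusted p = 3.62e-12). Ccn1, a matricellular protein, had 17.9, 19.4 and 26.9 CPM in KO 12 h livers, against 3.96, 2.98 and 1.12 CPM in KO 0 h livers (log2 fold change 3.02, adjusted p = 3.08e-08). Sox9, a factor of bile duct cells and of hepatocytes under injury, had 76.8, 25.8 and 109 CPM in KO 12 h livers, against 9.34, 12.1 and 14.4 CPM in KO 0 h livers (log2 fold change 2.53, adjusted p = 0.000201). Of 19 actin, tubulin and keratin genes 9 rose and 0 fell, and 8 or 9 did with any library left out. Actg1 had 148, 95.6 and 92.2 CPM in KO 12 h livers, against 8.87, 22.5 and 13.8 CPM in KO 0 h livers. The change in Actg1 was 2.89 ± 0.28 (SE) on the log2 scale (edgeR adjusted p = 3.32e-07). Tubb2a had 49.5, 54.5 and 55.2 CPM in KO 12 h livers, against 9.81, 7.31 and 6.95 CPM in KO 0 h livers. For Tubb2a the log2 fold change was 2.73 ± 0.26 (SE; edgeR adjusted p = 3.32e-08). Krt18, a keratin of the hepatocyte skeleton, had 177, 101 and 110 CPM in KO 12 h livers, against 37.7, 40.7 and 31.8 CPM in KO 0 h livers (log2 fold change 1.81, adjusted p = 6.67e-06). Cell cycle genes gave 2 calls of 15, Pcna and Mcm3, both higher, and 0 lower. That is 13.3%, against 15.1% of all tested genes called higher. Pcna had 11.4, 9.34 and 10.5 CPM in KO 12 h livers, against 6.17, 3.13 and 5.34 CPM in KO 0 h livers (log2 fold change 1.08, edgeR adjusted p = 0.000888). The call of Mcm3 was lost without KO 12 h replicate 2. Top2a, a marker of dividing cells, had 2.35, 0.246 and 1.4 CPM in KO 12 h livers, against 0.95, 0.149 and 0.248 CPM in KO 0 h livers (adjusted p = 0.142). Of 26 ribosome biogenesis factors 10 rose and 0 fell (8 to 12 with a library left out). Rrp12 had 14.9, 17.4 and 14.3 CPM in KO 12 h livers, against 4.27, 5.67 and 6.46 CPM in KO 0 h livers (log2 fold change 1.5, adjusted p = 2.5e-05), and Nop58, Noc2l, Gar1, Wdr43, Heatr1, Gnl3, Ddx21, Nop56 and Pes1 rose by 0.41 to 1.28 on the log2 scale. Of 21 hypoxia and glycolysis genes 6 rose and 0 fell, led by Hif1a at 125, 106 and 116 CPM in KO 12 h livers, against 49.4, 45.8 and 50.5 CPM in KO 0 h livers (log2 fold change 1.25 ± 0.11 (SE), edgeR adjusted p = 2.08e-10) and Pkm, the non-hepatocyte pyruvate kinase, at 7.04, 8.11 and 9.78 CPM in KO 12 h livers, against 1.43, 1.79 and 1.49 CPM in KO 0 h livers. The change in Pkm was 2.38 ± 0.30 (SE) on the log2 scale (edgeR adjusted p = 2.79e-07). The median of the hypoxia list was 0.24, and -0.00558 under scaling by library size alone, which called 4 higher and 4 lower.

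Of 16 iron and heme genes 4 rose and Slc40a1, the iron exporter ferroportin, fell, at 14.7, 18.2 and 18.9 CPM in KO 12 h livers, against 56.4, 39.8 and 57.2 CPM in KO 0 h livers. For Slc40a1 the log2 fold change was -1.57 ± 0.20 (SE; edgeR adjusted p = 1.17e-06). Tfrc, the transferrin receptor, had 50.1, 55.8 and 59.0 CPM in KO 12 h livers, against 25.6, 21.9 and 29.2 CPM in KO 0 h livers (log2 fold change 1.10, adjusted p = 0.000503). Calls made up 31.2% of the iron and heme list, near the share of all tested genes, 28.8%. Of 17 autophagy and lysosome genes 3 rose and 2 fell, so 29.4% were called, against 28.8% of all tested genes. Sqstm1, the p62 cargo receptor, had 266, 203 and 224 CPM in KO 12 h livers, against 108, 108 and 99.7 CPM in KO 0 h livers (log2 fold change 1.13 ± 0.13 (SE), edgeR adjusted p = 3.08e-08), and the falls of Gabarapl1 and Tfeb and the rise of Wipi1 were each lost in several leave-one-out fits, with 0 to 2 falls. None of 33 nuclear-encoded respiratory chain genes was called by edgeR (median -0.0468), although 14 were called lower under scaling by library size alone. Of 31 proteasome genes 3 were called higher and 2 lower with a median of -0.061, and 0 higher and 15 lower under that scaling, so neither list has a direction apart from the scaling. The proteasome falls numbered 1 to 4 with a library left out (KO 0 h replicate 2 and each KO 12 h replicate moved the count). Of 15 transcripts of the mitochondrial genome 5 were called higher and 0 lower, and together they summed to 544900 to 716700 CPM in KO 12 h livers and 451800 to 481200 CPM in KO 0 h livers, which do not overlap. Scaled by library size alone the list had 2 calls higher and 1 lower. ND6, 1 of the 5, had a log2 fold change of 0.99. With the counts of the annotated strand it was 0.17 (edgeR adjusted p = 0.404). ND5 had 19320, 18330 and 21760 CPM in KO 12 h livers, against 11570, 12750 and 11770 CPM in KO 0 h livers. The change in ND5 was 0.72 ± 0.13 (SE) on the log2 scale (edgeR adjusted p = 7.82e-05). The 12S ribosomal RNA mt-Rnr1 had 356000, 311700 and 410700 CPM in KO 12 h livers, against 240900, 253000 and 234900 CPM in KO 0 h livers (log2 fold change 0.57, adjusted p = 0.00395), a call that was lost under scaling by library size alone. The mitochondrial ribosomal RNAs lack the long tails by which polyadenylated RNA is selected, so their share also depends on the library preparation.

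**Figure D3:**
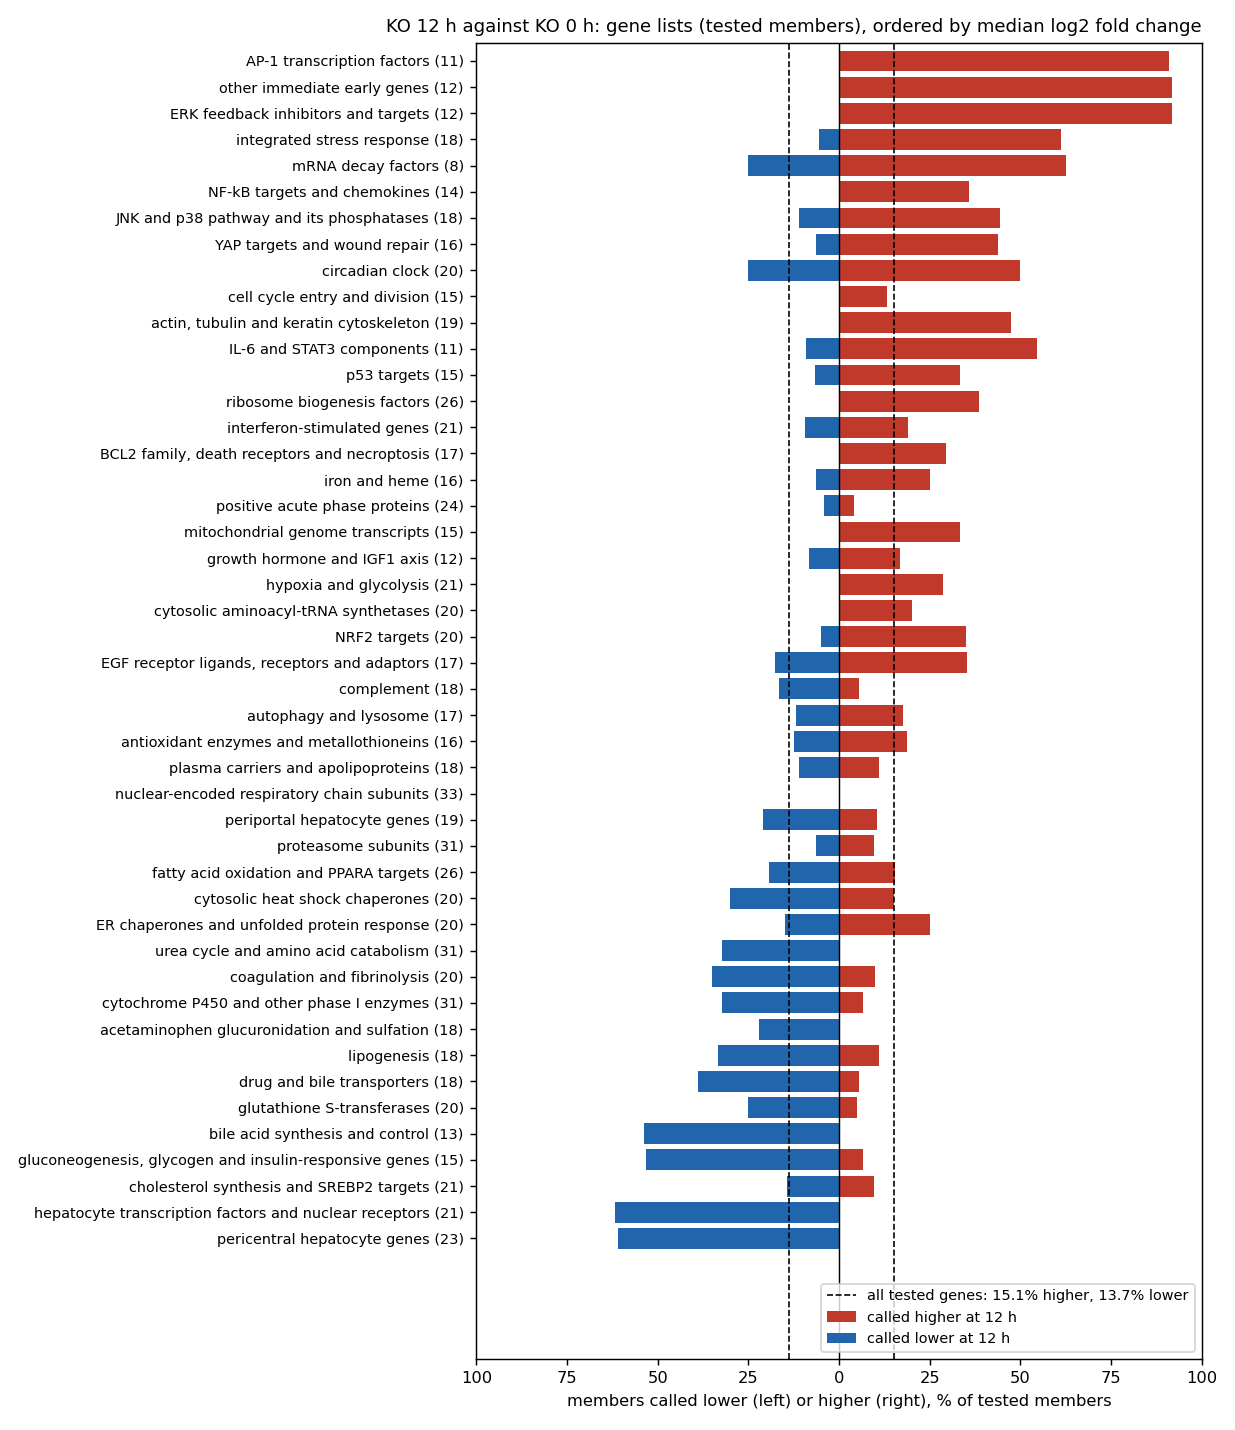
Share of the tested members of each of 46 gene lists that was called higher (to the right) or lower (to the left) in KO 12 h over KO 0 h livers, in percent. Dashed lines mark the 15.1% of all tested genes called higher and the 13.7% called lower; AP-1, other immediate early and ERK feedback genes reach farthest to the right, and hepatocyte transcription factors and pericentral genes farthest to the left.

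Outside the lists, the genes with the largest changes included enzymes and structural proteins of varied function. Chka, choline kinase alpha, which starts phosphatidylcholine synthesis, had 2580, 1796 and 2355 CPM in KO 12 h livers, against 39.3, 33.6 and 40.6 CPM in KO 0 h livers, or 2244 ± 404 and 37.8 ± 3.73 CPM (SD, n = 3 each; 59.3-fold; log2 fold change 5.89 ± 0.27 (SE), edgeR adjusted p = 4.88e-13). Hilpda, an inhibitor of lipolysis on lipid droplets, had 48.1, 36.1 and 56.2 CPM in KO 12 h livers, against 0.475, 1.34 and 0.993 CPM in KO 0 h livers. For Hilpda the log2 fold change was 5.58 ± 0.36 (SE; edgeR adjusted p = 1.78e-11). Krt78, a keratin, had 6.16, 5.65 and 10.5 CPM in KO 12 h livers, against 0.158, 0 and 0 CPM in KO 0 h livers (log2 fold change 6.72, adjusted p = 4.36e-10). Ccdc180 had 17.0, 9.09 and 14.3 CPM in KO 12 h livers, against 0, 0.448 and 0.124 CPM in KO 0 h livers (log2 fold change 5.98, adjusted p = 1.22e-05). Col23a1 and Trcg1 also met the naming rule, with log2 fold changes of 6.54 and 5.41, but 5.97% and 1.33% of their counts were on the annotated strand, so the signal may belong to a transcript of the opposite strand. Among the falls, Clec2d, a C-type lectin, had 20.2, 13.0 and 9.43 CPM in KO 12 h livers, against 95.3, 75.4 and 82.5 CPM in KO 0 h livers. The change in Clec2d was -2.55 ± 0.21 (SE) on the log2 scale (edgeR adjusted p = 4.97e-10). Akr1c6, a steroid reductase, had 25.2, 12.8 and 27.2 CPM in KO 12 h livers, against 172, 148 and 87.3 CPM in KO 0 h livers (log2 fold change -2.67, adjusted p = 0.000658). Dhrs7l had 2.05, 2.21 and 1.75 CPM in KO 12 h livers, against 17.1, 13.3 and 13.7 CPM in KO 0 h livers (log2 fold change -2.84, adjusted p = 5.97e-09). Tmem25 had 2.35, 1.47 and 2.10 CPM in KO 12 h livers, against 10.4, 11.5 and 15.0 CPM in KO 0 h livers (log2 fold change -2.66, adjusted p = 2.44e-08). Klhdc7a, Spata2l, Hsd3b2, Car5a, Abcd2, Zbtb45 and R3hdml, all below 15 CPM, fell by 2.32 to 3.69 on the log2 scale, with 5.56% and 0.6% of the counts of Zbtb45 and R3hdml on the annotated strand, and Abcd2 lost its call when only the groups compared were fitted.

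The order in time within KO livers was read from the KO 1 h and KO 3 h groups, which share the KO 0 h controls with the 12 h comparison. Against KO 0 h, 1001 genes were called at 1 h (7.58%), 1314 at 3 h (9.95%) and 3802 at 12 h (28.8%). Some genes were already well above 0 h at 1 h. Jun averaged 11.3, 216, 246 and 451 CPM at 0, 1, 3 and 12 h, and Chka averaged 37.8, 217, 288 and 2244 CPM. Hmox1 averaged 6.99, 37.3, 87.1 and 271 CPM. Others were near 0 until 12 h: Cxcl10 averaged 0.537, 0.636, 0.645 and 27 CPM and Fosb 0, 0, 0.0519 and 7.56 CPM. Socs3 was already present at 0 h, averaging 5.37, 2.04, 2.31 and 47.7 CPM. Slc1a2 averaged 258, 192, 187 and 8.77 CPM, so most of its fall lay between 3 and 12 h. Clec2d averaged 84.4, 17.5, 26.8 and 14.2 CPM, with most of the fall already there at 1 h. Bmal1 averaged 5.98, 19.96, 22.3 and 21.9 CPM and was level after 1 h. By list, 8 hepatocyte transcription factors were called lower at 1 h, 6 at 3 h and 13 at 12 h, and for pericentral genes these counts were 1, 2 and 14. Of all tested genes 3.64% were called lower at 1 h, 4.84% at 3 h and 13.7% at 12 h. The steps between 1, 3 and 12 h were not tested.

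**Figure D4:**
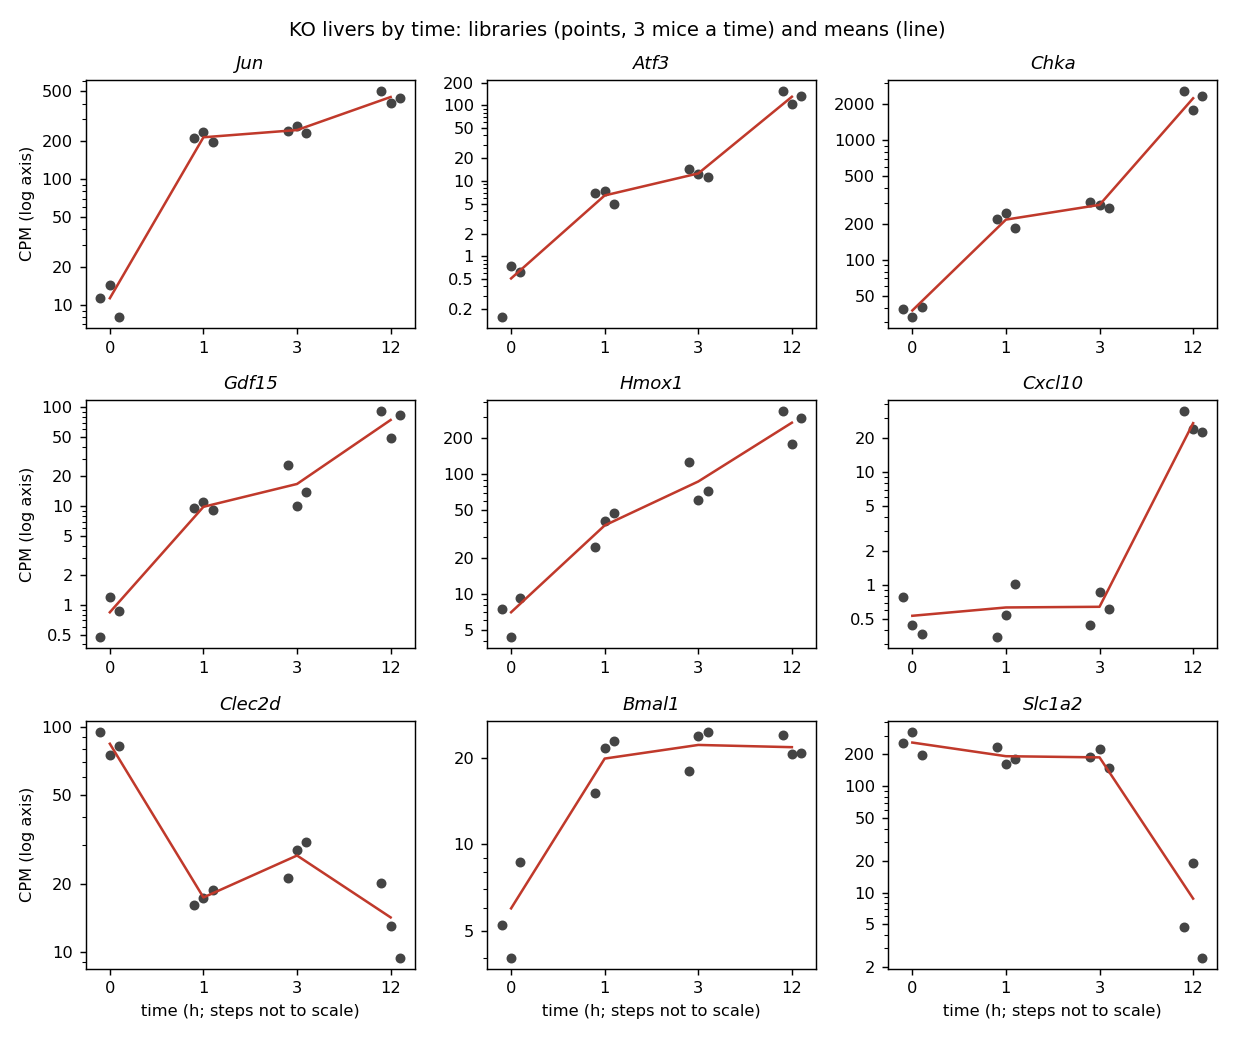
Levels of 9 genes in KO livers at 0, 1, 3 and 12 h (CPM, log axis), with a point for each library and a line through the group means. Jun, Chka and Hmox1 are above 0 h from 1 h on, Cxcl10 rises only at 12 h, and Slc1a2 falls mostly between 3 and 12 h.

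The 12 h response of KO livers was then set against that of WT livers, to ask which genes respond differently when hepatocytes lack EGFR. The test was edgeR's on the difference of the log2 fold changes, the KO response minus the WT response. Of the 13204 genes 3 were called (0.0227%) at an adjusted p below 0.05, and 1350 had an unadjusted p below 0.05. DESeq2 called 29. In WT livers 3381 genes were called between 12 h and 0 h (25.6%; 13.4% higher and 12.2% lower), and 2192 genes were called in the same direction in both genotypes, 57.7% of the KO calls and 64.8% of the WT calls, with 1 gene called in opposite directions. Across all tested genes the log2 fold changes of the genotypes had Pearson's r 0.788 and Spearman's rho 0.688, a description over genes that share libraries. Of the 1609 genes called in KO livers and not in WT livers 1 had a called difference, so a call in 1 genotype alone does not show a difference.

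H1f2, a linker histone, had 33.4, 47.4 and 33.2 CPM in KO 12 h livers, against 9.18, 7.76 and 7.58 CPM in KO 0 h livers, and 22.8, 26.1 and 30.3 CPM in WT 12 h livers, against 12.4, 22.9 and 17.7 CPM in WT 0 h livers. Its log2 fold change was 2.23 in KO and 0.61 in WT livers, a difference of 1.62 ± 0.30 (SE; edgeR adjusted p = 0.0457), and WT livers started from the higher level. Ggcx, the vitamin K-dependent carboxylase that activates clotting factors, had 24.0, 25.6 and 33.5 CPM in KO 12 h livers, against 28.3, 32.1 and 29.7 CPM in KO 0 h livers, and 44.0, 43.1 and 46.9 CPM in WT 12 h livers, against 25.9, 22.3 and 22.2 CPM in WT 0 h livers. It rose in WT livers by 0.92 and was not called in KO livers (log2 fold change -0.13, adjusted p = 0.513), with a difference of -1.05 ± 0.19 (adjusted p = 0.0213). The call of H1f2 was lost when any of 8 of the 12 libraries was left out (adjusted p 0.0599 to 0.248) and that of Ggcx with any of 4 (0.0603 to 0.17). With the counts of the annotated strand, Ggcx had a difference of -0.15 (adjusted p = 0.837). The third gene, the predicted Gm16146, falls outside the naming rule and was chosen after its values were seen: it had 42.8, 35.6 and 32.5 CPM in KO 12 h livers, against 18.1, 15.2 and 13.2 CPM in KO 0 h livers, and 26.2, 25 and 23.6 CPM in WT 12 h livers, against 32.5, 29 and 26 CPM in WT 0 h livers, with 1.27% of its counts on the annotated strand.

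Of all genes called in KO livers 73.6% had the larger size of change in KO livers, among genes that were selected by their KO call. The examples that follow are genes of the groups above whose differences did not pass the adjustment. Cyp7a1, Akr1d1, Edem1 and Tmem25 fall outside the rule for naming differences, and all had the larger fall in KO livers. They do not stand for the genes called in KO livers as a set. Cyp7a1 fell in KO livers (log2 fold change -2.08) and had 183, 245 and 109 CPM in WT 12 h livers, against 135, 165 and 159 CPM in WT 0 h livers (log2 fold change 0.23); the difference had an unadjusted p of 0.00162 and an adjusted p of 0.209. Akr1d1 had a WT log2 fold change of -0.38 beside -1.53 in KO livers (adjusted p of the difference 0.148), and Edem1 0.048 beside -0.63 in KO livers (adjusted p 0.137). Tmem25 had -1.07 in WT beside -2.66 in KO livers (adjusted p 0.17). Of 21 hepatocyte factors 13 were called lower in KO and 11 in WT livers, with medians of -0.708 and -0.5. Of 23 pericentral genes 14 were called lower in KO and 12 in WT livers, with medians of -0.974 and -0.924. In each of these lists 0 members were called higher in KO and 1 in WT livers. The AP-1 list gave the same counts in both genotypes, 10 higher and 0 lower of 11, with medians of 3.53 in KO and 3.5 in WT livers, and 0 members had an unadjusted p below 0.05 for the difference. The ERK feedback list gave 11 higher in KO and 9 in WT livers, with medians of 1.88 in KO and 2.37 in WT livers. The median of its per-gene differences, KO response minus WT response, was 0.48, of the opposite sign to the difference of the medians, and 3 of its 12 tested members had an unadjusted p below 0.05 for the difference, against 1350 of all 13204 tested genes. Of the EGF receptor ligands, Areg averaged 3.92 CPM in KO 12 h and 3.71 CPM in WT 12 h livers, and Hbegf 4.13 CPM in KO 12 h and 5.14 CPM in WT 12 h livers. Between the genotypes at 12 h itself 7 genes were called (0.053%), all lower in KO than in WT livers (Krt78, Polg2, Mrnip, Cpm, Ggcx, Taok3 and Afm), and 1362 had an unadjusted p below 0.05.

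**Figure D5:**
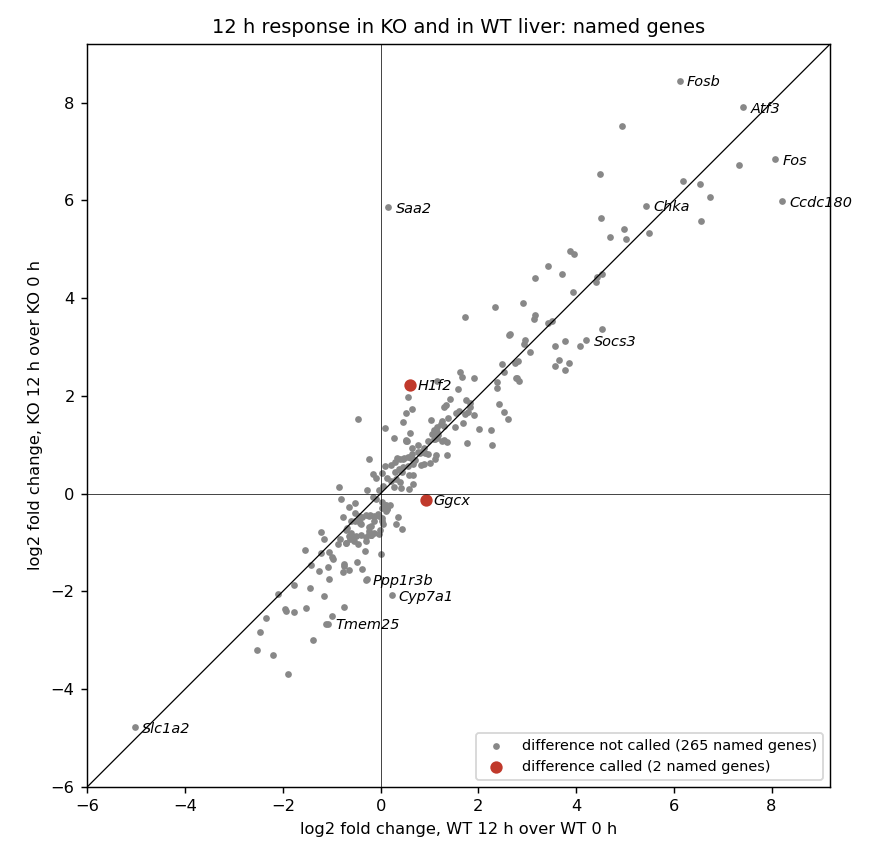
Log2 fold change, 12 h over 0 h, of the 267 named genes in KO livers (vertical axis) and in WT livers (horizontal axis), with a line of equality. Most points lie near the line, and the 2 named genes with a called difference, H1f2 and Ggcx, are marked.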

How the data were processed

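RNA-seq was measured in whole liver of 3 mice a group; the text uses the KO 12 h and KO 0 h libraries, and WT 12 h, WT 0 h, KO 1 h and KO 3 h for reference. The authors aligned and counted reads with STAR against mm39, per the submitters' processing notes, whose version, settings and annotation were not given in the sources used here. The deposited values are read counts per gene, of which the unstranded column was used, as in the rule that chose the samples. The lines of each file that name no gene were left out of library sizes and tests: unmapped reads were 19.2 to 23% of the reads in the 6 KO 12 h and KO 0 h libraries, multimapping reads 7.28 to 8.16%, reads outside genes 21.2 to 22.6% and ambiguous reads 27.5 to 30%, which left 17.7 to 22.4% on genes. Low-depth genes therefore carry wide counting error, and ambiguous reads can hide overlapping genes.

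Genes were filtered with filterByExpr (13204 of 50657 kept, holding 99.4% or more of every library), scaled by TMM and fitted with edgeR 4.0.16 (R 4.3.3, limma 3.58.1) on all 24 libraries as 8 groups, with robust quasi-likelihood tests of KO 12 h minus KO 0 h and of the KO response minus the WT response. P-values were adjusted by Benjamini-Hochberg over all tested genes. Scripts were tested on simulated data. Replicates are separate mice by the protocol, and chi-square per degree of freedom between replicate pairs was 3.86 to 7.9, so no library repeats another. The genes and lists, and the rule for naming genes, were chosen with earlier results of these data known. The rule took the 15 largest called changes in each direction whose higher group averaged 5 CPM or more and whose libraries did not overlap, passing over predicted genes, up to 6 a direction for the difference of response, up to 5 members a list by smallest p, the first 2 markers a cell type, the 10 most abundant genes, and Egfr with its ligands. Other called list members are named only to account for a count. Some list members are counted with their list but are not reported here by name. Levels in CPM are not corrected for gene length. Alternatives were RLE scaling, library size alone, removal of mitochondrial ribosomal RNA, no filter, a filter of 1 CPM in 3 libraries, a fit of the compared groups alone, a block for the replicate number, the gene-strand column, DESeq2 1.42.0, and leaving out each library.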

Additional observations from a re-analysis of the deposited data

Results flagged for a closer look

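3 genes responded differently in KO and WT livers by the test of the difference itself, at an edgeR adjusted p below 0.05. The predicted gene Gm16146 had a KO response minus WT response of 1.49 on the log2 scale (SE 0.21, adjusted p = 0.00105); its counts lie almost wholly on the strand opposite its annotation. H1f2 had a difference of 1.62 (SE 0.30, adjusted p = 0.0457), and Ggcx one of -1.05 (SE 0.19, adjusted p = 0.0213). Groups of 3 libraries were not tested for outlying samples.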

How the results depend on the processing

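The 3802 calls of KO 12 h against KO 0 h stayed within 1.5 times in all alternatives run, between 3041 with only the groups compared and 4801 with library size alone, and between 3105 and 3443 with a library left out; fits with a library left out tested up to 13724 genes. Of the 231 named genes called, 180 kept their call in every alternative that gave them a value and 51 lost it in at least 1 (25 with library size alone, 39 in at least 1 fit without a library); none changed direction. The cause of these losses was not tested. The 3 calls of the difference of response were 1 with library size alone, 79 with no low-count filter, 5 with a filter of 1 CPM, 9 with only the groups compared, 0 with the gene-strand column (edgeR; 1205 genes at an unadjusted p below 0.05) and 29 with DESeq2, and 1 to 15 with a library left out. With the replicate number as a block there were 5, and 3819 calls of KO 12 h against KO 0 h; the numbers are not shown to pair mice, since deviations of same-numbered libraries correlated at 0.0597, -0.037 and -0.0915 over 7888 genes. The 12 h libraries hold 3537237 to 4214237 gene counts, of which 44.8 to 50.4% are mitochondrial ribosomal RNA, so genes near 1 CPM rest on a few counts each, and a gene that is not called is not shown to be level.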
